A study of Mus musculus with 550 samples.

Results

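Dnmt3b knockout (3BKO) embryoid body cells at day 9 differed widely in the level of a set of stress response genes. The 22 cells with the highest level in their library batch were set against 22 with the lowest. Embryoid bodies (EBs) are aggregates in which embryonic stem cells (ESCs) differentiate, here after withdrawal of LIF, the cytokine that holds mouse ESCs undifferentiated. The series holds 550 single cells, all made from E14 ESCs of strain 129/Ola and taken at day 3 or day 9, of 3 genotypes: wild type (WT), the Dnmt3a-/- line (3AKO) and 3BKO, which is Dnmt3b-/-. Of these cells 93 were 3BKO at day 9, and 67 passed the filter (at least 50000 assigned reads, at least 2000 detected genes and at most 50% mitochondrial reads). Of the 26 cells lost, 24 had too few reads. Stress-high and stress-low cells carry the same labels, 3BKO at day 9, and came from 1 plate.

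Cells were chosen by a stress score, the mean of log2(CPM + 1) over Nupr1, Chac1, Asns, Trib3 and Ddit3 in a cell, where CPM is the count of a gene scaled to the assigned reads of that cell. They were ranked within each of the 2 library batches, which held different columns of the plate. The top 15 of 46 cells in batch 1 and the top 7 of 21 in batch 2 were called stress-high, the bottom 15 and 7 stress-low, and the 23 cells between were not compared. The study differentiated 2 independent 3BKO clones and pooled EBs, but the labels do not say which clone a cell came from. Each group of cells therefore counts as 1 sample, cells are not replicates, and every difference below is a description with no test. Clone and stress score cannot be told apart in these data.

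Amino acid shortage, unfolded protein, haem lack and viral RNA are sensed by separate kinases that phosphorylate the initiation factor eIF2α. General translation then slows while the transcription factor ATF4 is made, and ATF4 turns on genes for amino acid synthesis, amino acid uptake and tRNA charging. The score genes belong to this integrated stress response. Nupr1 encodes a small chromatin-associated stress protein, Chac1 an enzyme that breaks down glutathione, Asns asparagine synthetase, Trib3 a pseudokinase that dampens ATF4 output, and Ddit3 the transcription factor CHOP. ATF4 pairs with C/EBP proteins on an 8-base composite element whose core is TGATGNAA.

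The promoters of the score genes are shown because that element can be read in them directly. The windows came from RefSeq (GRCm38.p6), 250 bases before and 50 after each annotated start, and both strands were searched for TGATGNAA, so that a match on the other strand reads TTNCATCA. Capitals mark the match in each line, which runs 5′ to 3′ on the strand of the gene.
Nupr1, chr7:126625471-126625720, minus strand: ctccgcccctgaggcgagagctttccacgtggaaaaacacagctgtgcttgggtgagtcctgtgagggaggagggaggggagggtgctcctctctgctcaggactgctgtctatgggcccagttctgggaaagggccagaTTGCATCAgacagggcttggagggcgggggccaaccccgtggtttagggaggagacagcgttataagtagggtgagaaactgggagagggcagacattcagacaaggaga
Chac1, chr2:119350992-119351241, plus strand: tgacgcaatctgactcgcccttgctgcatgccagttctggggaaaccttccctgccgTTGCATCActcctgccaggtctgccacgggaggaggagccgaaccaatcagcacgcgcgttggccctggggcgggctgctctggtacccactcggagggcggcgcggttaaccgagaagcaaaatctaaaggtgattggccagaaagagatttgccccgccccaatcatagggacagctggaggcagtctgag
Asns, chr6:7693210-7693459, minus strand: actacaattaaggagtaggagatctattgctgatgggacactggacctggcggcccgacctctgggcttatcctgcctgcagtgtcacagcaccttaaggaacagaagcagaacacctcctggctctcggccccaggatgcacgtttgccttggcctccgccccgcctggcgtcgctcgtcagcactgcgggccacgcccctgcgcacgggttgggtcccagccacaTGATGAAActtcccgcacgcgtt
Pycr1, chr11:120643749-120643998, minus strand: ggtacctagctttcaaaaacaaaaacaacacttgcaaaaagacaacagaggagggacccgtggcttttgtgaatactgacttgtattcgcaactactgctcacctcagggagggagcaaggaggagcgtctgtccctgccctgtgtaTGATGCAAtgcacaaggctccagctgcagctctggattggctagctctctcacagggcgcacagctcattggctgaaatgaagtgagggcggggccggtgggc

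Pycr1, which makes proline, was not in the score and is shown for comparison, since it had one of the highest ratios outside it. Counted from the start, with the base before it at -1, the match lay at -110 to -103 in Nupr1, at -193 to -186 in Chac1, at -23 to -16 in Asns and at -103 to -96 in Pycr1. In Trib3 it lay after the start, at 15 to 22, in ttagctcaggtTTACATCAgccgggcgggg. No match was found in the window of Ddit3. Outside the score the letters were also read in Herpud1 (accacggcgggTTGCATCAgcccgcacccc, at -112 to -105).

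Of the 5 score genes 4 held a match, against 4.51% of 27025 genes in the promoter table. Among listed ATF4 targets outside the score, 14 of 43 with a window held one (32.6%), including 5 of 7 aminoacyl-tRNA synthetases and 2 of 11 genes of serine, glycine, proline and one-carbon synthesis. Those 2 were Pycr1 and Got1, which held its match at -102 to -95. Got1 had a lower summed value in stress-high cells, given below, so a match did not always go with a higher value. Among genes higher in stress-high cells by the rule given below, with the score genes left out, 16 of 305 with a window held a match (5.25%), and among those lower 7 of 180 (3.89%), beside 2.59% of all detected genes. The 16 include listed ATF4 targets already counted above, Pycr1 and Herpud1 among them. No match was found in 17 genes for chaperones and degradation in the endoplasmic reticulum (ER) or in 16 G2 and M phase genes. These shares describe letters in a window and not binding.

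Stress-high cells scored 2.90 to 9.72 with a median of 6.59, and stress-low cells 0 to 2.74 with a median of 1.65. The ranges did not meet, as the ranking fixes. In batch 1 the lowest stress-high cell had 5.31 and the next cell below it 5.28, while the highest stress-low cell had 2.74 and the next above it 2.77. In batch 2 the same neighbours were at 2.90 and 2.85 and at 2.32 and 2.39. Scores ran on without a gap at each of these limits. Batch 2 reached lower scores: its stress-high median was 3.46 against 7.31 in batch 1, and 5 of its 7 stress-high cells lay below the batch 1 limit. Stress-high therefore stands for a lower score in batch 2, and the main values are also given by batch.

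**Figure D1:**
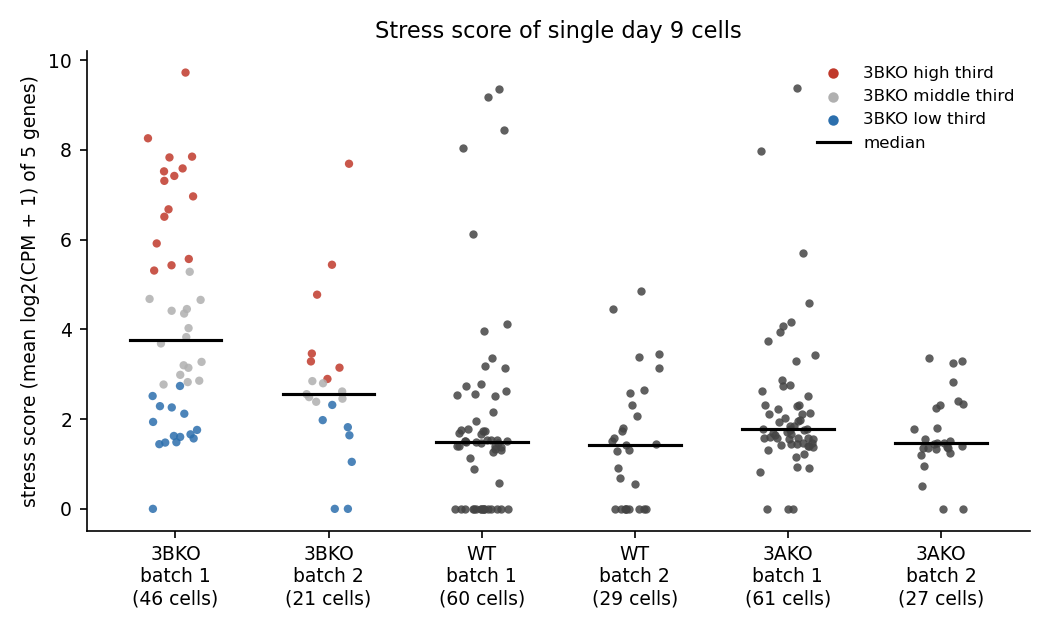
Stress score (mean log2(CPM + 1) of 5 genes, vertical axis) of every kept day 9 cell by genotype and library batch, with black lines at medians and 3BKO cells coloured by rank class. Batch 1 of 3BKO spreads from 0 to 9.72 with stress-high cells from 5.31 upwards, and most WT and 3AKO cells lie below that limit.

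High scores were seen in the other genotypes too. The limit used here was set by the 3BKO ranking, which fixes the 3BKO share at 22 of 67 kept cells. At or above the 3BKO stress-high limit of the same batch were 10 of 89 WT cells (11.2%, exact binomial 95% interval 5.52 to 19.7) and 6 of 88 3AKO cells (6.82%, interval 2.54 to 14.3). In batches 1 and 2 these were 5 of 60 and 5 of 29 cells in WT, and 3 of 61 and 3 of 27 in 3AKO. These binomial intervals cover the error of counting cells and nothing else, and cells of 1 plate are not replicates. The Poisson interval given below treats reads as independent and leaves out the spread between cells. It can be too narrow, because the libraries had no molecular identifiers and several reads can stem from 1 molecule. The genotypes were on separate plates, so plate and genotype cannot be told apart. The plot of scores by genotype and batch shows these cells as the uppermost points of each column.

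The groups were close but not equal in depth. Stress-high cells had a median of 345814 reads (104894 lowest) and 5952.5 detected genes, and stress-low cells 277263 reads (54720 lowest) and 5400 genes. After every cell was thinned to 50000 reads, the medians were 4592 and 4134 genes. The median mitochondrial share was 4.09% in stress-high and 3.66% in stress-low cells, though in batch 2 it was 11.2% and 6.10%. Summed reads were 9579676 and 8960962. The part of detected genes per cell in the results was not tested. Dnmt3b itself was read in 14 of 67 kept cells labelled 3BKO, at a summed 16.4 CPM and 417 CPM in the highest cell, against 59 of 89 WT cells, at 167 CPM and a median of 66.5 CPM. Reads of Dnmt3b lay in 4 stress-high and 7 stress-low cells, so the targeted transcript was not absent from every cell of either group.

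The 5 score genes did not contribute alike. All of them chose the cells, so their values are a description. Nupr1 ranged from 0 to 1378 CPM in stress-high cells with a median of 188, and from 0 to 4.35 CPM in stress-low cells with a median of 0. It had reads in 19 of 22 stress-high and 2 of 22 stress-low cells.

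Chac1 was read in 14 stress-high cells, from 0 to 5400 CPM with a median of 81.8, and in no stress-low cell. Summed Chac1 was 414 CPM (exact Poisson 95% interval 401 to 427), which is at least 1236-fold higher than a floor of 3 reads summed over all stress-low cells. Trib3 ranged from 0 to 1835 CPM with a median of 120 in stress-high cells and from 0 to 4.60 CPM with a median of 0 in stress-low cells. For both genes the stress-low cells were almost empty of reads, while 8 stress-high cells also lacked Chac1 and so overlapped with them.

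Asns behaved differently. It was read in 22 of 22 stress-high cells, from 175 to 5813 CPM with a median of 1036, and in 17 of 22 stress-low cells, from 0 to 2523 CPM with a median of 285. The groups overlapped, and the log2 ratio of summed CPM + 1 was 1.46 (1.25 in batch 1 and 1.86 in batch 2) against 7.31 for Nupr1 and 6.81 for Trib3.

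Ddit3 ranged from 0 to 101 CPM with a median of 25.7 in stress-high cells, and from 0 to 147 CPM with a median of 0 in stress-low cells. The highest Ddit3 cell was thus a stress-low cell, and the log2 ratio was 1.75. Exons of Ddit3 overlap the opposite-strand gene Mars, and since no source used here says if counting was stranded, its reads are uncertain. In 7 stress-high cells all 5 genes had reads and in 10 of them 4 had, while 14 of 22 stress-low cells had reads of a single score gene and 3 had none.

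**Figure D2:**
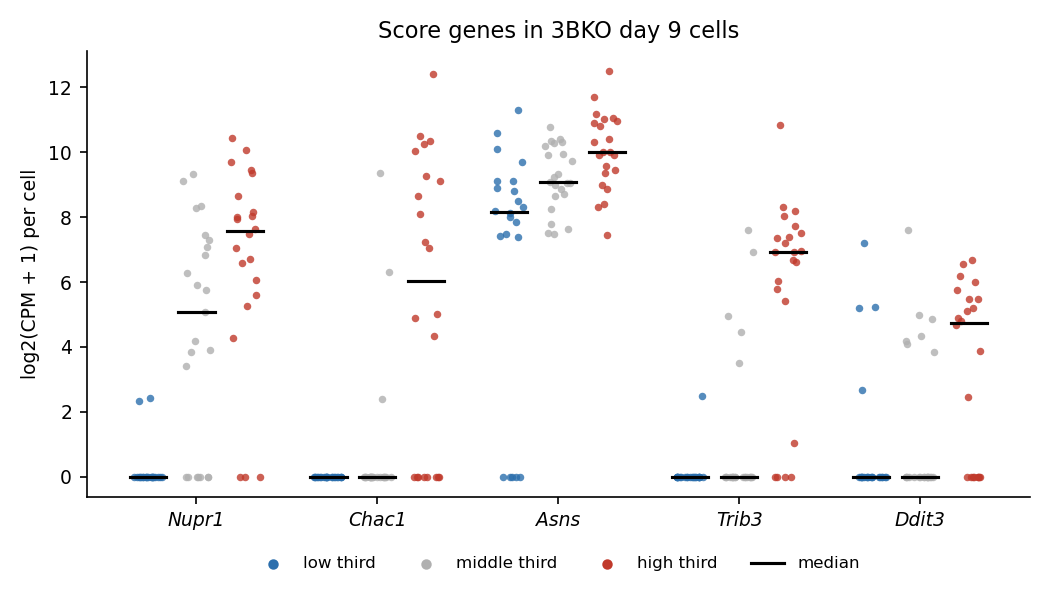
log2(CPM + 1) of the 5 score genes in each 3BKO day 9 cell (vertical axis), by rank class, with black lines at medians. Nupr1, Chac1 and Trib3 sit at 0 in nearly every stress-low cell, whereas Asns is read in 17 of 22 of them and Ddit3 is at 0 in many cells of every class.

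Within batch 1 (46 cells), Trib3 followed the mean of the other 4 genes most closely (Spearman's rho 0.75) and Ddit3 least (0.19), with Nupr1 at 0.60, Chac1 at 0.58 and Asns at 0.46. In batch 2 (21 cells) the values ran from -0.06 for Ddit3 to 0.51 for Asns. These are correlations across cells that share plate, library preparation and the per-cell total in CPM. The plot of the 5 genes by class shows the values of each cell.

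A gene was taken as detected when, in both batches, 25% or more of the stress-high or of the stress-low cells had a read of it. Of 8448 such genes, 414 were higher in stress-high cells by at least 1 on the log2 scale in both batches (4.9%) and 243 were lower by as much (2.88%). These shares are the background against which the counts below are read, and a gene that met both conditions is called higher or lower in both batches. In a single batch the shares were 14.5% higher and 12.2% lower (batch 1), and 23.6% and 19.3% (batch 2). The median over all detected genes was 0.03. The ratio adds 1 CPM to both sums and so understates differences of genes with low values.

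Listed ATF4 targets outside the score were higher as a group. Of 57, 46 were detected, 17 of these were higher in both batches and 0 were lower, and their median log2 ratio was 1.25 (1.62 in batch 1, 0.69 in batch 2). Detection required reads in the group where a gene is high, so undetected targets are not counted among these. Cell by cell, the mean log2(CPM + 1) of the list was 2.97 to 6.62 with a median of 4.84 in stress-high cells and 2.17 to 4.17 with a median of 3.25 in stress-low cells. Of the 22 stress-high cells 16 lay above every stress-low cell, and the others overlapped with them. By batch, the rho of the list level with the score was 0.85 in batch 1 (46 cells) and 0.40 in batch 2 (21 cells). The list level also went with detected genes per cell (rho 0.53 in batch 1 and 0.44 in batch 2), whose part was not tested. The median stayed above 0 in both batches under every alternative tried (0.40 to 1.45 in batch 2).

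**Figure D3:**
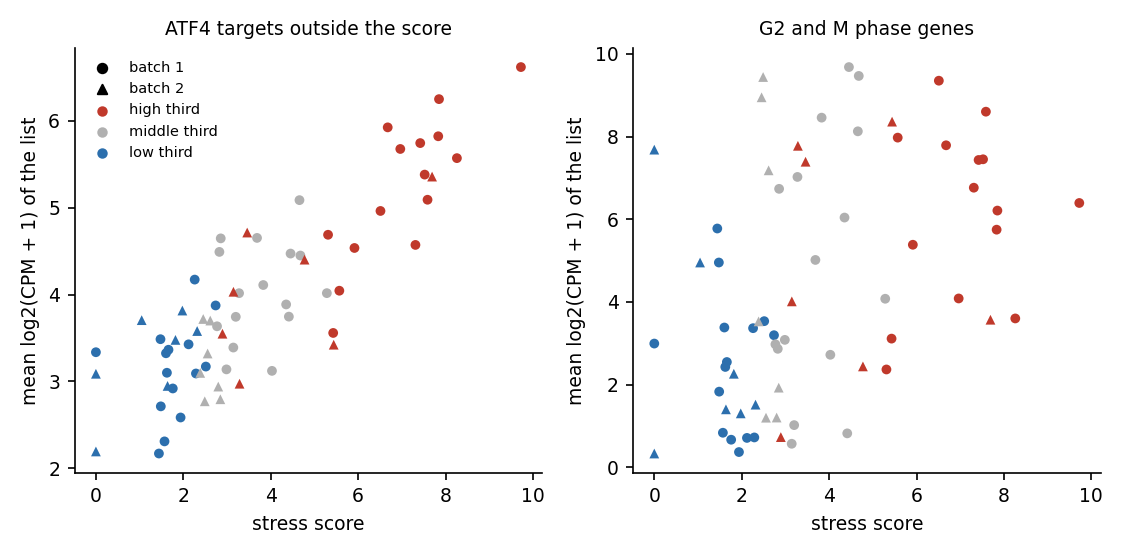
Mean log2(CPM + 1) of 2 gene lists (vertical axes) against stress score (horizontal axes) in 67 3BKO day 9 cells, coloured by rank class, with circles for batch 1 and triangles for batch 2. The ATF4 targets climb with the score, from a stress-low median of 3.25 to a stress-high median of 4.84, more closely in batch 1 (rho 0.85) than in batch 2 (0.40). The G2 and M phase genes spread widely at every score.

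Genes that make serine, glycine, proline and one-carbon units had the highest median of the ATF4 lists with 5 or more detected genes, with 8 of 11 detected members higher in both batches and a log2 ratio of 1.99 (1.68 and 2.29 by batch). Pycr1 was 0 to 267 CPM in stress-high cells with a median of 68.2, and was read in 14 of them. It was 0 to 14.4 CPM in stress-low cells and was read in 1. The stress-low cells were thus nearly empty, and the log2 ratio was 5.45 (6.30 and 5.06 by batch).

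Aldh18a1, which makes the proline precursor ahead of Pycr1, had medians of 67.03 and 0 CPM, highest cells of 400 and 73.6 CPM and a log2 ratio of 4.14. Phgdh, the first enzyme of serine synthesis, had medians of 139 and 0 CPM and highest cells of 2649 and 214 CPM, with a log2 ratio of 3.46; a pseudogene copy exists. For all 3 enzymes some stress-high cells had no read and overlapped with the stress-low cells.

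Further along the pathway, Psat1, the transaminase after Phgdh, had a log2 ratio of 1.86 and the mitochondrial one-carbon enzymes Mthfd2 and Shmt2 had 1.99 and 1.41. Cth, which makes cysteine, had 2.01 and the alanine transaminase Gpt2 2.50. Got1, the cytosolic aspartate transaminase, went the other way, at 343 CPM in stress-high and 572 CPM in stress-low cells, with a log2 ratio of -0.74 that did not reach the limit. Mthfd1l stood at 0.11.

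Among transcription factors and feedback genes, 4 of 12 detected were higher in both batches, with a median of 1.70 (2.16 and 0.54 by batch). Herpud1, an ER protein that aids degradation of misfolded proteins, was 0 to 1670 CPM in stress-high cells with a median of 222, and 0 to 105 CPM in stress-low cells with a median of 0. Reads were in 15 and 4 cells, and the log2 ratio was 4.92 (4.82 and 5.26 by batch). Ddit4, an inhibitor of the growth kinase mTORC1, had 3.38, but 1 cell held 53.5% of its stress-high reads.

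Eif4ebp1, a translation repressor, was read in every cell of both groups, at 441 to 7440 CPM with a median of 1730 in stress-high cells and at 104 to 1064 CPM with a median of 527 in stress-low cells. The groups overlapped, and its log2 ratio was 1.86. Sesn2, another mTORC1 inhibitor, had 1.64. Atf4 itself depended on batch: the median was 454 CPM in stress-high and 63.01 CPM in stress-low cells, but the log2 ratio was 4.08 in batch 1 and 0.19 in batch 2. The phosphatase subunit Ppp1r15a, which reverses eIF2α phosphorylation, had -0.01 and the ATF4 partner Cebpg -0.13. Atf3 was read in 4 and 1 cells, with 3.98 in batch 1 and -3.96 in batch 2.

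The aminoacyl-tRNA synthetases, which charge tRNAs with amino acids, moved in a narrow band. On this scaling all 12 had a positive log2 ratio, from 0.19 (Eprs) to 1.88 (Aars), beside 4364 of all 8448 detected genes. Of the 12 synthetases 4 were higher in both batches and the median was 1.07 (1.35 and 0.57 by batch). Aars, for alanine, was 67.8 to 1172 CPM with a median of 339 in stress-high cells and 0 to 860 CPM with a median of 136 in stress-low cells. The groups overlapped over most of that range. Mars (1.84) shares exon bases with Ddit3, and Cars and Yars had 1.72 and 1.37.

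Amino acid transporters had a median of 0.67 in batch 1, 0.09 in batch 2 and 0.83 on the summed counts, above both, and 0 of 9 detected were higher in both batches. Across cells the rho of their mean level with the score was 0.63 in batch 1 (46 cells) and 0.06 in batch 2 (21 cells). Slc3a2, the shared heavy chain of several exchangers, was read in all 44 cells, with medians of 1148 and 466 CPM and log2 ratios of 2.02 in batch 1 and 0.03 in batch 2. Slc7a11, the cystine importer, had 0.65. Slc1a4 was below the detection limit and so not counted, but had 239 reads in 10 stress-high cells and 0 in stress-low cells, at least 74.5-fold higher than the floor of 3 reads. Of 6 secreted targets 2 were detected, with a median of 2.80 (3.31 and 0.27 by batch). The cytokine Gdf15 had 2.64, with 2.95 in batch 1 and -0.98 in batch 2.

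**Figure D4:**
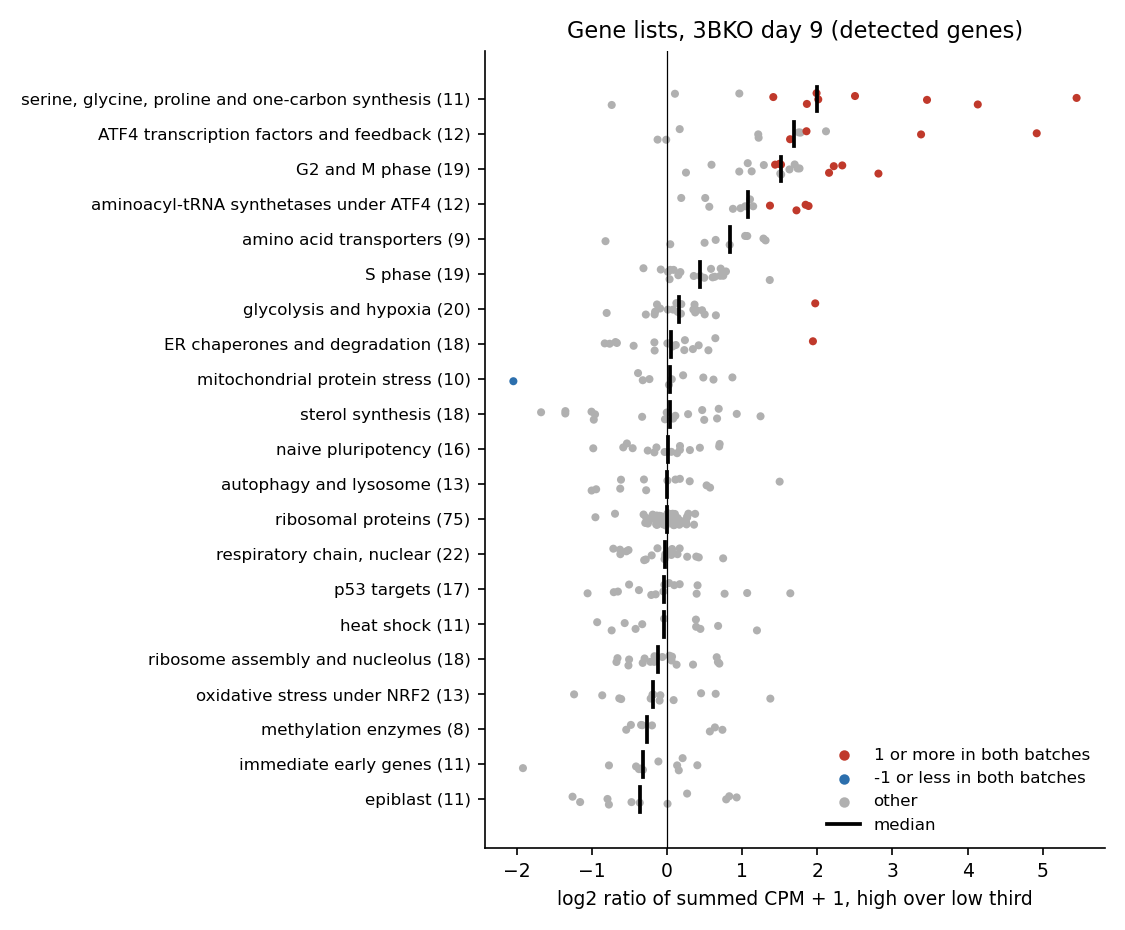
log2 ratio of summed CPM + 1, stress-high over stress-low 3BKO day 9 cells (horizontal axis), for detected genes (points, number in brackets) of each list with 5 or more detected genes, score genes left out, with black lines at list medians and colour for genes past 1 or -1 in both batches. Serine, glycine, proline and one-carbon synthesis has the highest median among these lists, 1.99, and ER chaperones, heat shock and ribosomal protein genes centre on 0.

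By list medians and counts of genes past the limit, other stress programmes did not stand apart from the background. ER chaperones and degradation factors, targets of the unfolded protein response, had a median of 0.05 (-0.17 and 0.44 by batch) with 1 of 18 higher in both batches. That one was Dnajc3, an inhibitor of the ER stress kinase (1.94; reads in 12 and 3 cells). Hspa5, the main ER chaperone, was 0 to 2654 CPM with a median of 465 in stress-high cells and 0 to 3190 CPM with a median of 927 in stress-low cells. The groups overlapped over nearly the whole range, and the log2 ratio was -0.17.

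Medians were -0.04 for heat shock genes, -0.18 for oxidative stress genes under NRF2, -0.03 for p53 targets (-0.44 and 0.23 by batch), 0.01 for autophagy and lysosome genes (-0.07 and -0.47 by batch) and -0.00 for 75 ribosomal protein genes (0.09 and -0.26 by batch), with no gene of these 5 lists past the limit in both batches. Mitochondrial protein stress genes had a median of 0.04. One of its 10 detected genes was lower in both batches, Yme1l1, a protease of the inner mitochondrial membrane, at 95.6 CPM in stress-high and 398 CPM in stress-low cells (-2.04). The chart of gene lists sets these medians below those of the ATF4 lists. Across cells the picture depended on batch. The rho of mean level with the score was -0.08 in batch 1 and 0.32 in batch 2 for ER chaperones and degradation factors. It was -0.16 and 0.34 for p53 targets, 0.14 and 0.02 for heat shock genes and 0.17 and -0.28 for ribosomal protein genes. For ATF4 targets outside the score it was 0.85 and 0.40, so in batch 2 the first 2 of these lists came close to it.

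G2 and M phase genes were higher in stress-high cells of batch 1. Of 19 detected, 7 were higher in both batches and 18 were positive in both, beside 2225 of all 8448 detected genes positive in both. The list median was 2.54 in batch 1, 0.73 in batch 2 and 1.52 over both. Birc5, or survivin, a subunit of the chromosomal passenger complex, was 0 to 705 CPM with a median of 230 in stress-high cells and 0 to 118 CPM with a median of 13.7 in stress-low cells. Cdk1, the kinase that drives mitosis, was read in 22 stress-high cells at 39.2 to 1840 CPM and in 12 stress-low cells at 0 to 376 CPM. Both genes overlapped between groups, with log2 ratios of 2.81 and 2.22.

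Cell by cell, the mean of the 19 genes was 0.73 to 9.35 with a median of 6.30 in stress-high cells and 0.33 to 7.68 with a median of 2.35 in stress-low cells. The groups overlapped widely. Its rho with the score was 0.57 in batch 1 (46 cells), and with the score of the other 4 genes without Nupr1 it was 0.51. In batch 2 (21 cells) these were 0.24 and 0.11. The list median in batch 1 lay between 1.93 and 2.703 under the 22 alternatives that gave one, but in batch 2 it ran from -1.61 to 3.21 and was above 0 in 18 of 22. With Nupr1 left out of the score it was -1.61 in batch 2 and -0.43 over both batches, with 0 of 19 genes higher in both. A split into an upper and a lower class with no middle also gave 0 of 19. The level of these genes also went with detected genes per cell (rho 0.55 in batch 1 and 0.46 in batch 2), as that of the ATF4 targets did. S phase genes had a median of 0.44 (0.70 and 0.07 by batch) with 0 of 19 higher in both batches. The rho of their mean level with the score was 0.45 in batch 1 and 0.44 in batch 2. With detected genes per cell it was 0.65 and 0.41.

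Outside these lists, the highest ratios among genes spread over several cells were of Cnot6, a deadenylase subunit that shortens mRNA tails. It was read in 15 stress-high cells at up to 234 CPM with a median of 8.23 and in no stress-low cell, at least 208-fold higher than the floor of 3 reads. Fkbp6 and Pdha2, both known mainly from male germ cells, had reads in 8 and 7 stress-high cells and in no stress-low cell. Each lay at 0 in most stress-high cells, so the groups overlapped at 0.

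Cd80, a T cell co-stimulator, had a log2 ratio of 5.16 from 6 stress-high cells and Gpatch2l 4.69 from 9. Akap11, a kinase anchor, had 4.59, Alg3, a mannosyltransferase of N-glycan assembly that shares exon bases with opposite-strand genes, 4.46, and the histone gene Hist1h2ae 4.39. Spag5, a mitotic spindle protein, and Gen1, a resolvase of recombination junctions, both had 4.17. Of these, Hist1h2ae was read in the most cells, 15 stress-high and 7 stress-low.

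Among genes lower in stress-high cells, Lgals1, encoding the lectin galectin-1, was read most widely. It was 0 to 353 CPM with a median of 15.9 in stress-high cells (12 with reads) and 0 to 1719 CPM with a median of 109 in stress-low cells (18 with reads). The groups overlapped, and the log2 ratio was -2.78 (-2.21 and -3.64 by batch); pseudogene copies exist.

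Slmap, a membrane protein gene, was read in 7 and 13 cells (-3.85) and Arrdc2 in 3 and 11 (-3.84). Gstm3, a glutathione transferase, and Polg2, the accessory subunit of the mitochondrial DNA polymerase, had no read in stress-high cells and reads in 6 and 8 stress-low cells. They were at least 82.7-fold and 38.5-fold lower by the floor of 3 reads over the group. The other 7 were Shisa2 (-3.88), Slc26a2 (-3.87), Lin54 (-3.56), Hspg2 (-3.13), Tspan1 (-3.10), Dnlz (-2.85) and Zcchc4 (-2.77), each read in 9 or fewer stress-low cells.

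Across all 8448 genes the log2 ratios of the 2 batches were nearly unrelated (Pearson's r 0.01 over genes, which are not independent). Of the 29 genes named as score genes or as highest and lowest, 24 kept their sign in every alternative. The 5 that did not were all among the lowest: Zcchc4 with Nupr1 left out of the score, and Gstm3, Slmap, Polg2 and Dnlz with Nupr1 alone as the score. Score genes chose the cells, and the others were picked as past the limit in both batches. A kept sign was therefore largely fixed by the choice of genes.

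Pluripotency genes did not follow the stress score in 3BKO. Nanog and Zfp42, markers of naive ESCs, were read in all 44 cells, Nanog at 893 CPM in stress-high and 1003 CPM in stress-low cells, and the naive list had a median of 0.01 (-0.24 and 0.36 by batch) with 0 of 16 genes past the limit. The same ranking in WT and 3AKO (58 cells each) gave medians of 0.88 with 6 of 15 genes higher in both batches and 1.00 with 2 of 14. The classes in WT and 3AKO had lower scores, given below. In WT, 2.61% of 8167 detected genes were higher and 2.53% lower in both batches, and in 3AKO 2.71% and 2.58% of 8258.

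ATF4 targets outside the score had medians of 0.85 in WT (5 of 37 higher in both batches) and 0.40 in 3AKO (2 of 41) against 1.25 in 3BKO. Pycr1 had log2 ratios of 1.79 and 0.94 in WT and 3AKO and Herpud1 2.05 and 1.05, below their 3BKO values. Both were named for their high ratios in 3BKO, so lower values elsewhere do not show a difference between genotypes. G2 and M phase genes had medians of 0.00 and 0.23 with 0 genes higher in both batches in each, against 1.52. By batch the medians were 2.54 and 0.73 in 3BKO, -0.21 and 0.40 in WT and 0.33 and -0.18 in 3AKO. With Nupr1 left out of the score, the 3BKO median was -0.43. The median score of stress-high cells was 3.14 in WT and 2.82 in 3AKO against 6.59 in 3BKO, and the differences between genotypes were not tested.

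**Figure D5:**
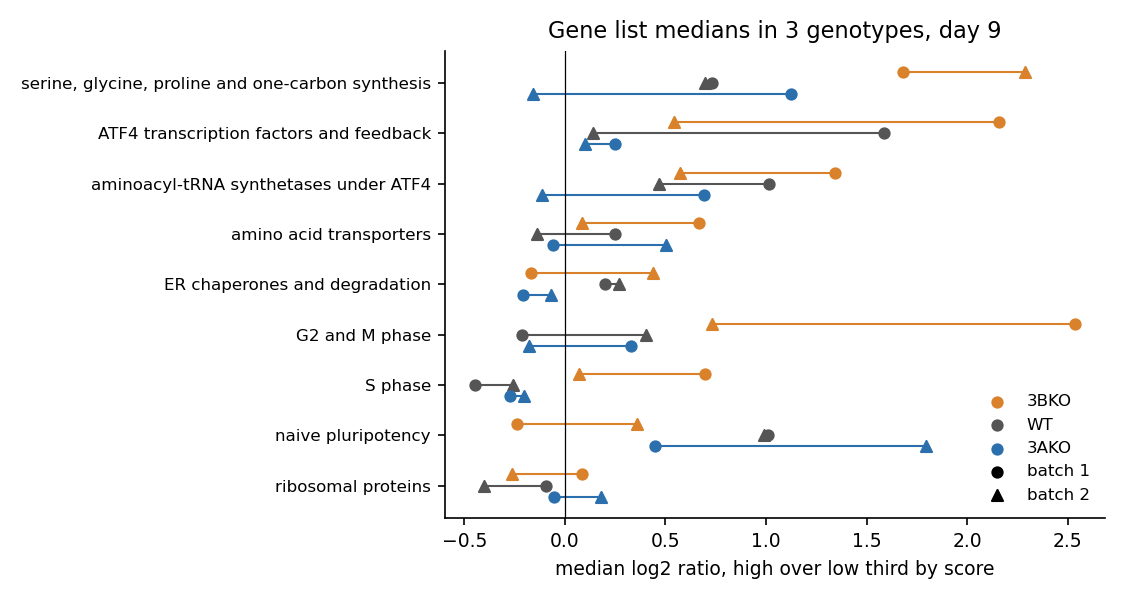
Median log2 ratio of each gene list, stress-high over stress-low cells (horizontal axis), by genotype at day 9, with circles for batch 1, triangles for batch 2 and lines joining them. G2 and M phase genes reach 2.54 in batch 1 and 0.73 in batch 2 of 3BKO and centre near 0 in WT and 3AKO. Naive pluripotency genes lie above 0 in WT and 3AKO and on both sides of it in 3BKO. Cells were ranked within each genotype, so the classes cover unlike score ranges.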

How the data were processed

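Single cells sorted into 96-well plates were amplified by a modified Smart-seq2 protocol without molecular identifiers. The authors trimmed reads with Trim Galore 0.5.0, aligned them to GRCm38 with STAR 2.7.1a, counted uniquely mapped reads over exons with featureCounts 1.6.1 and deposited raw counts per gene name; whether strand was used is not given in the sources used here. The table had 55228 genes, and 26 columns belonging to no sample were not used. Groups and batches came from the labels.

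Counts were summed over cells, scaled to CPM and compared as log2 ratios with a pseudocount of 1. No cells shared identical counts, and no doublet caller was run. Highest and lowest named genes were the 12 at each end past the limit in both batches, leaving out score genes, unnamed gene models and genes with over 50% of reads in 1 cell; each list gave up to 4 of its most extreme detected members and those a sentence turns on. The members and lists were chosen with earlier results of these data known. Mars1 was matched as Mars. Positions used GENCODE M21. Scripts (Python 3.11.15, pandas 2.3.3) were tested on simulated data. TMM factors came from edgeR 4.0.16 and median-ratio factors from DESeq2 1.42.0. Score without each gene, other filters, other cuts and thinning were also tried.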

Additional observations from a re-analysis of the deposited data

Results flagged for a closer look

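Some values pointed one way in both batches of 3BKO and the other way in both batches of another genotype under the same ranking by score. None of these differences was tested, and each group of cells is 1 sample. Given as the 3BKO log2 ratio minus that of the other genotype, the difference for Hist1h2ae was 4.72 against WT and 4.55 against 3AKO, and for Alg3 it was 4.95 against 3AKO. Among genes lower in 3BKO stress-high cells, the differences were -5.13 for Shisa2, -3.94 for Lgals1 and -3.56 for Dnlz against 3AKO, and -5.07 for Slmap, -5.06 for Arrdc2 and -3.64 for Zcchc4 against WT. These genes were named for their extreme ratios in 3BKO, so the choice of genes used these values. Several values of the other genotype were small. By batch, Hist1h2ae had -0.015 and -1.19 in WT and -0.16 and -0.14 in 3AKO. Alg3 had -0.74 and -0.15 in 3AKO, and Zcchc4 had 0.11 and 1.37 in WT. Not all were small: Shisa2 had 1.04 and 1.41 in 3AKO.

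Differences of list medians were smaller, and some of the 3BKO batch medians were themselves small. S phase genes had 0.07 in batch 2, and oxidative stress genes under NRF2 had -0.09 in each batch. S phase genes differed by 0.63 against WT and 0.88 against 3AKO, and glycolysis and hypoxia genes by 0.71 against WT. Autophagy and lysosome genes differed by -0.40 against WT and -0.42 against 3AKO on the summed counts, where the 3BKO median was 0.01 although it was -0.07 and -0.47 in the batches, and oxidative stress genes under NRF2 by -0.38 against 3AKO.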

How the results depend on the processing

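Reads of 1 plate, unknown clones and 22 cells a group set the limits. ATF4 targets outside the score kept a positive median in all 23 alternatives (0.69 to 1.88). The counts of genes past the limit did not hold: against 414 higher and 243 lower, batch 1 alone gave 1469 and 1194, batch 2 alone 2726 and 2140, an upper and a lower class with no middle 195 and 123, a pseudocount of 10 160 and 82, detection in 10% of cells 810 and 503, in 50% 127 and 63, and no detection filter 982 and 593. Without the cell filter 102 were lower, and the median of all genes moved to 0.23. Fewer conditions or stricter ones explain the detection and batch settings by construction; for the rest the cause was not tested. With Nupr1 left out of the score, the G2 and M phase median reversed to -0.43 and Zcchc4 to 0.32. Scoring by Nupr1 alone, an alternative chosen after seeing the data, moved the score difference from 4.60 to 7.87 and reversed Gstm3 (0.34), Slmap (0.53), Polg2 (0.57) and Dnlz (0.053); the cause was not tested. Genes read in few cells, as most of the lowest were, are limited by depth. No paired analysis was possible because no result comes from a test and replicate numbers only name cells.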

Other observations

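Germ layer markers were sparse in both groups of 3BKO cells. Of 14 meso-endoderm markers 2 were detected by the same limit and 6 were at 0 in all 67 kept cells, among them T, Mixl1, Mesp1 and Foxa2; their summed level was 0 to 622 CPM in stress-high and 0 to 413 CPM in stress-low cells. Of 14 neuro-ectoderm markers 1 was detected and 8 were at 0, Sox1 included, and the summed level was 0 to 917 CPM with a median of 230 against 0 to 974 CPM with a median of 21.3. Its detected gene was Tubb3, a neuronal tubulin also read in other cells, in 19 stress-high and 10 stress-low cells (log2 ratio 0.68; 0.08 in batch 1 and 3.42 in batch 2). Of 10 trophoblast markers 1 was detected and 4 were at 0.

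Epiblast genes had a median log2 ratio of -0.36 (-0.57 and 0.33 by batch) with 0 of 11 past the limit. Lefty1, an inhibitor of Nodal signalling, was at 160 CPM in stress-high and 383 CPM in stress-low cells, and Trh, encoding a thyrotropin-releasing hormone precursor, at 153 and 342 CPM. Of 8 detected methylation enzymes none was past the limit: Dnmt3a was at 45.6 and 57.6 CPM and Dnmt3l at 213 and 298 CPM. In the glycolysis and hypoxia list 1 of 20 was higher in both batches, Ankrd37, a hypoxia-induced gene (1.97; reads in 12 and 8 cells).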
